A study of Mus musculus with 8 samples.

Results

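Lymphocytes recognise antigen through receptors that they assemble by rearranging gene segments. B cells carry an immunoglobulin that signals through CD79A and CD79B, and plasma cells secrete it, in IgA and polymeric IgM joined by the J chain. T cells signal through the CD3 chains with CD4 or CD8 as coreceptors, and cytotoxic T cells and NK cells kill with perforin and granzymes. The liver holds resident NK and T cells, and lymphocytes collect around its portal tracts in inflammation and with age. The 34 genes described here code for such proteins. They form a list of marker genes by name, and each was read from the probe set (a group of short probes for 1 transcript) that the platform annotation gives to it alone, the one with the highest mean where several exist. Of the 34 genes, 28 had such a probe set, out of 8252 genes named in this way on the array. Igkc, Ighg1, Ighg2b, Iglc2, Lck and Nkg7 had none.

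The samples were livers of 8 female Ames dwarf mice (df/df), 1 Affymetrix U74Av2 array for each mouse. Ames dwarf mice lack growth hormone, prolactin and thyroid stimulating hormone from the pituitary. All 8 were given 30% less food than freely fed female df/df mice ate, and their age at death was 24 to 26 months. The mice make up 1 group, so the data hold no contrast with free feeding or with mice without the mutation, and every comparison is between individual livers. The deposited values are intensities in array units, already scaled between arrays. Values under 37.2, the 25th percentile of all values, were treated as near background and not detected. A gene was tested where its mean reached 165.2, the median of all values, which 6265 probe sets did. Intensities of different genes are not set against each other, because each probe set has its own response. In RNA from whole liver, fewer cells of a type and less RNA per cell cannot be told apart.

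Most T cell genes (6 of 9) had a mean under the background floor, and the IgM and IgA heavy chains, Cd79a and Ms4a1 were read above it in every mouse. Of the 28 genes, 9 were bright enough to test (Ighm, Igha, Cd79a and Ms4a1 of the B lineage, Cd4 of the T lineage, and the more widely expressed leukocyte genes Ltb, Cd37, Cd52 and Cd53). Another 12 had a mean above the floor but too low to test, and 7 had a mean below it. The 3 Y-linked genes on the array, which female mice lack, gave a scale for a false reading. They read at most 70.0 (Uty in mouse 1), and 6 of the 28 genes never exceeded that in any mouse. The label of the list therefore holds only in part for these livers. It describes the 4 bright B lineage members and the 4 shared leukocyte genes. Another 6 B lineage members were too dim to test, and no cytotoxic or NK cell member was bright enough. Most T lineage members were not detected.

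**Figure D1:**
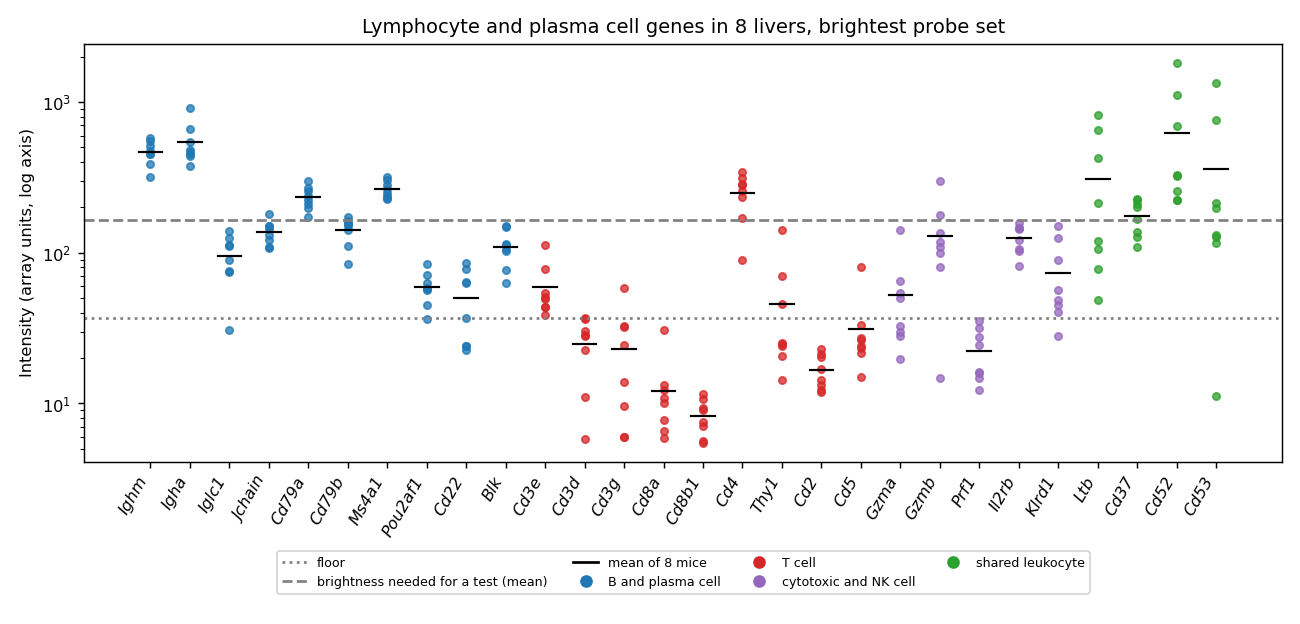
Intensity of each gene in each of the 8 mice (points, log axis) with the mean (black bar), coloured by role, for the 28 genes with a probe set. The dotted line is the floor of 37.2 and the dashed line the mean of 165.2 needed for a test. Most T cell genes lie on or under the dotted line, and Ltb, Cd52 and Cd53 have the widest spread among genes above the dashed line.

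Of the T cell genes, 6 of 9 had a mean below the floor, and 4 of them (Cd3d, Cd8a, Cd8b1 and Cd2) lay below it in all 8 mice. The highest values of the CD8 chains were 30.6 for Cd8a and 11.6 for Cd8b1. The signalling chains of the T cell receptor were Cd3d (5.8 to 36.7), Cd3g (6 to 58.3, above the floor only in mouse 2) and Cd3e, which read 38.6 to 113 and was highest in mouse 1. Cd2, an adhesion receptor, read 11.9 to 23, and Cd5, a receptor that dampens antigen signalling, was above the floor only in mouse 3 (80.5). Thy1, a surface protein of mouse T cells that other cell types also make, reached 141 in mouse 6 and 69.8 in mouse 8, and lay between 14.3 and 46 in the other mice. Cd4, the coreceptor of helper T cells, was the only T lineage member bright enough to test. It read 286, 315, 345, 90.1, 283, 235, 169 and 259 in mice 1 to 8, so that mouse 4 was low and the other 7 lay between 169 and 345. Both CD8 chains, Cd3d and Cd3g had means under the floor in the same livers, and which cells gave the Cd4 signal was not tested.

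The cytotoxic and NK cell genes had no member bright enough to test, and their higher readings lay in a few livers. Gzmb, a granzyme that cuts caspases in target cells, was highest in mouse 6 (300.3), followed by mouse 8 (179), with 14.8 in mouse 5 and 81.1 to 135 in the other 5 mice. Klrd1 (CD94), a subunit of NK cell receptors, was also highest in mouse 6 (150.4), then in mouse 8 (125) and mouse 3 (90.2), with 27.9 to 56.3 in the rest. Gzma, another granzyme, read 142 in mouse 6 and 19.7 to 65.5 elsewhere. Il2rb, a receptor chain for IL-2 and IL-15, read 81.7 to 158 and was highest in mouse 2. Prf1, the pore-forming perforin, lay below the floor in all 8 mice (12.3 to 35.3), so its values have no order.

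IgM and IgA heavy chain transcripts were detected in all 8 livers, and whether IgM spread less than IgA depended on the probe set. Ighm, the IgM heavy chain, read 581, 455, 513, 451, 391, 554, 319 and 473 in mice 1 to 8 (467 ± 85.1, SD, n = 8), a range of 1.82-fold. Igha, the IgA heavy chain, read 466, 455, 548, 921, 482, 437, 668 and 379 (545 ± 175), a range of 2.43-fold. Mice 4 and 7 stood highest for Igha and lay at 451 and 319 for the brightest probe set of Ighm, so these probe sets did not share an order. The other bright probe set of Ighm, taken up below, was highest in mouse 4 as Igha was, with mice 7 and 3 next. It ranged 4.26-fold, more widely than Igha. Jchain read 108 to 182 and Iglc1, a lambda light chain constant gene, 30.6 to 140, and neither was bright enough to test.

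Probe sets given to the same immunoglobulin gene gave different profiles. The annotation gives 16 probe sets to Ighm. Of these, 2 were bright enough to test, and the name of the brighter carries a suffix that marks shared or non-standard probes. The other of these read 205, 96.8, 241, 412, 108, 176, 241 and 178, and its correlation with the first over the 8 mice was r = 0.0355 (exact permutation p = 0.934; Spearman's rho = -0.143, p = 0.752). It was highest in mouse 4, as Igha was, and its correlation with Igha, computed after the values were seen, was r = 0.737 (exact permutation p = 0.0377, 0.0754 adjusted over 4 probe set pairs; rho = 0.714, p = 0.0576). That value rests on mice 4 and 7, since without them r was 0.166. The reading of the other bright probe set of Ighm is thus uncertain. A dimmer Ighm probe set, too dim to test, was above the floor in every mouse (mean 132). It read 127, 120, 161, 126, 112, 165, 85.9 and 157 in mice 1 to 8, a range of 1.92-fold. It was lowest in mice 7 and 5, as the brightest probe set was, but their correlation was not computed. The next by mean (75.3) was lowest in mouse 6 and did not share that order. Any statement on IgM beyond the narrow spread of its brightest probe set stays uncertain. Of the 3 probe sets of Igha, 1 had a mean above the floor and the test level (545), and the others averaged 35.9 and 17.6.

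The bright probe sets of Cd79a and Ms4a1 varied little between livers. Of the dimmer B lineage genes, Iglc1 ranged most widely, 4.58-fold, or 3.77-fold with mouse 7 set to the floor. Its variance was 2.02 times that expected at its brightness (limma without a filter), which did not pass after adjustment. Jchain (1.69-fold) did not range more than Cd79a. Cd79b, Blk, Pou2af1 and Cd22 ranged more widely than Cd79a. The wider spread was not beyond that expected at their brightness (limma F test without a filter, unadjusted p = 0.572, 0.513, 0.51 and 0.189). Cd79a, the signalling chain of the B cell receptor, read 300.2, 259, 172, 267, 240, 224, 212 and 197 in mice 1 to 8, a range of 1.74-fold. Ms4a1 (CD20), a membrane protein of mature B cells, read 304, 250, 281, 227, 320.1, 237, 232 and 266, a range of 1.41-fold. A dimmer probe set of Ms4a1 read 29.4 to 170.2 with r = -0.00489 against the brighter one (exact permutation p = 0.991; rho = 0.0958, p = 0.825), so the flat profile rests on 1 of 2 probe sets. Cd79b, the partner of CD79A, read 84.5 to 173, Blk, a Src family kinase of B cells, 63.3 to 149.7, and both were detected in every mouse, with ranges of 2.05-fold and 2.36-fold. Pou2af1, a coactivator that plasma cell formation needs, read 36.5 to 84.2, and Cd22, an inhibitory receptor, 22.7 to 85.3 with 4 mice under the floor.

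**Figure D2:**
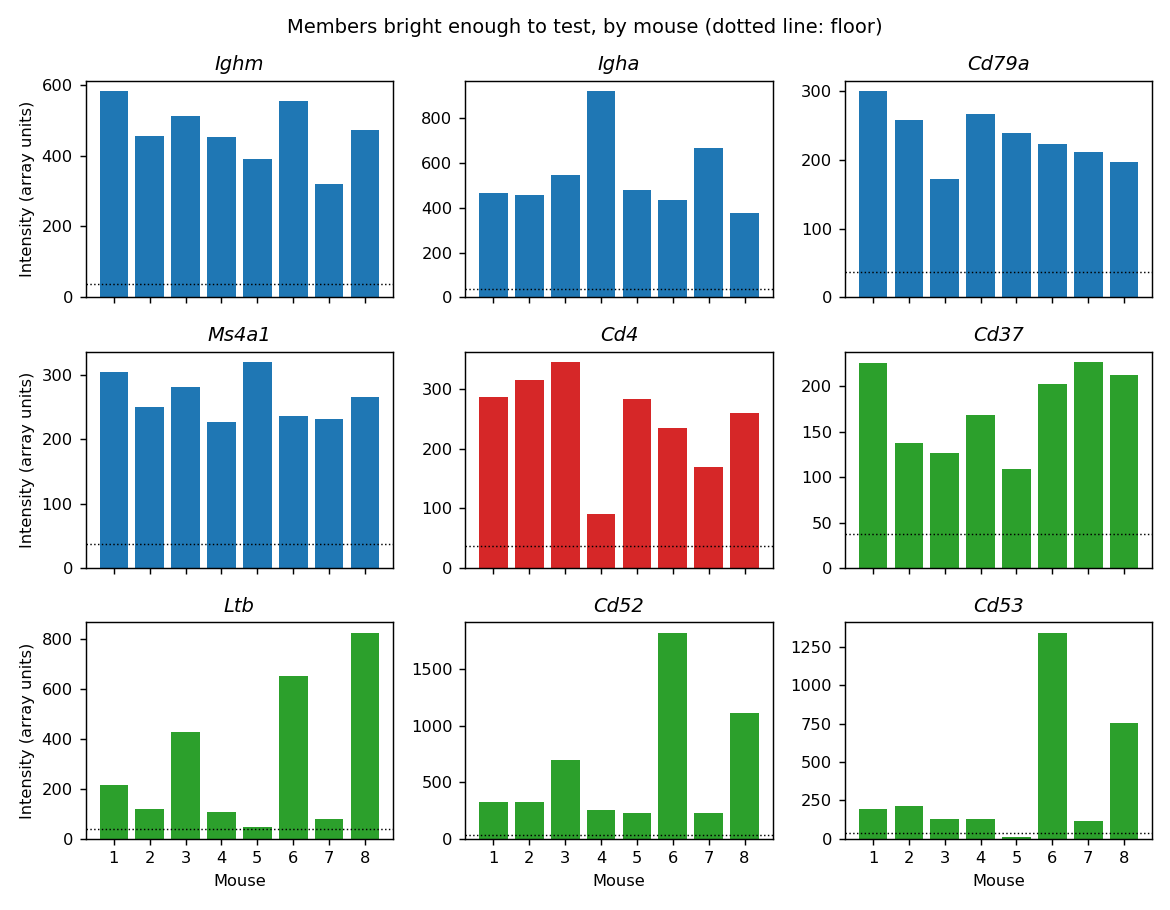
Intensity of the 9 genes bright enough to test in mice 1 to 8 (bars from 0, array units, 1 array for each mouse, dotted line at the floor of 37.2). Ltb, Cd52 and Cd53 are high in mice 6 and 8, Igha is highest in mouse 4 (921) and Cd4 lowest there (90.1), and Ighm, Cd79a and Ms4a1 stay within 1.82-fold.

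Ltb, Cd52 and Cd53 varied most between the livers. Ltb (lymphotoxin beta), a membrane ligand of the TNF family made by lymphocytes and NK cells, read 214, 120, 426, 107, 48.9, 650, 77.6 and 824 in mice 1 to 8, a range of 16.9-fold. Cd52, a small glycoprotein of lymphocytes, monocytes and macrophages, read 328, 323, 693, 257, 224, 1819, 225 and 1114, a range of 8.11-fold. Cd53, a tetraspanin of nearly all leukocytes, read 197, 215, 128, 130, 11.2, 1344, 116 and 758, a range of at least 36.1-fold with mouse 5 set to the floor. Mice 6 and 8 held the highest pair of values of all 3 genes, and mouse 5 the lowest. Mouse 3 came next for Ltb and Cd52 but not for Cd53, where it lay with the low mice. Cd37, a tetraspanin most abundant on B cells, read 225, 137, 126, 168, 109, 202, 226 and 212 and did not share that order. Mouse 5 was also far below the others for some genes outside the list. Xist read 95.8 there and 442 to 1572 in the others, and Hnf4a 266 against 702.5 or more, while Tat was highest there (21226). The low end in mouse 5 is thus not particular to Ltb, Cd52 and Cd53, and its cause was not tested.

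The region before the start of a gene holds many of the sites that set its transcription, and 17 of the 34 genes had an entry in the RefSeq table of such regions (GRCm38.p6). The 250 bases before the start are shown for Ltb and Cd53, which were highest in the same livers, and for Cd79a, which was not. Capitals mark matches on either strand to GAGGAA (the core bound by PU.1, a factor of B and myeloid cells), TTCNNNGAA (bound by STAT factors), a kappa B motif and ATGCAAAT (the octamer of immunoglobulin promoters). The 3 regions are chr17:35194257-35194506 on the plus strand for Ltb, chr3:106790150-106790399 on the minus strand for Cd53 and chr7:24897247-24897496 on the plus strand for Cd79a.
Ltb: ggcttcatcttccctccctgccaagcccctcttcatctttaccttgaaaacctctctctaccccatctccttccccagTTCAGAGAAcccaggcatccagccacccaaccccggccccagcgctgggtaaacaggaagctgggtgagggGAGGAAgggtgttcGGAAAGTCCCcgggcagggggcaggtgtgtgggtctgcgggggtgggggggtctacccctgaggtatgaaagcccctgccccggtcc
Cd53: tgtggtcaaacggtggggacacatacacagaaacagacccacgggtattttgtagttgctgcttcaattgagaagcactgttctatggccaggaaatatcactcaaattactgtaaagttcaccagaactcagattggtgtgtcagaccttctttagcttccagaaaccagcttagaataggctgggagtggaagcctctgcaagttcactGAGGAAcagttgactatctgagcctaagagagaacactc
Cd79a: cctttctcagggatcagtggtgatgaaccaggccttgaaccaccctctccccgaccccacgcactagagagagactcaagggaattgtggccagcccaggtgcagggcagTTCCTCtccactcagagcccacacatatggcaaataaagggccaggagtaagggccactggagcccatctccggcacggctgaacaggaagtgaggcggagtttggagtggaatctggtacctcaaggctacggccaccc
Ltb had 1 match to GAGGAA, starting 101 bases before the start, 1 to TTCNNNGAA at 172 and 1 to the kappa B motif at 87 on the opposite strand. Cd53 had 1 match to GAGGAA at 39 and Cd79a 1 at 140 on the opposite strand, and neither had a match to the other 3 motifs. No region of the 3 held the octamer. Among the 32851 regions of the same length in the table, 23.3% held GAGGAA, 7.02% TTCNNNGAA, 1.41% the kappa B motif and 1.6% the octamer. A match is a description of the letters and not a measured site.

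Spread between mice was tested for every probe set by its variance of log2 intensity over that expected at its brightness (limma, F test). None of the 9 genes passed at a Benjamini-Hochberg adjusted p under 0.05 (0 of 9, against 0% of all 6265 probe sets). The smallest adjusted p-value of the F test over all probe sets was 0.265. Even Ubd, whose variance was 209 times that expected, had an unadjusted p of 8.85e-05 by this F test. With 3.8 prior degrees of freedom, the test could hardly pass any gene after adjustment. The count of 0 is therefore no evidence of a small spread. At an unadjusted p under 0.05, 3 of the 9 were called, against 6.38% of all probe sets. They were Cd52 (SD 1.15 on the log2 scale, against 0.22 expected at its brightness), Cd53 (1.63 against 0.32) and Ltb (1.49 against 0.33). Their adjusted p-values by limma were 0.397, 0.397 and 0.466. Cd53 reached the mean needed for a test only through mice 6 and 8, where it was high, so the filter itself favoured a wide spread for it. The median SD was 0.41 for the 9 genes and 0.24 for all probe sets tested. The F ratios of Cd79a and Ms4a1 were 0.794 and 0.473, so that their spread was below that expected at their brightness.

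Iigp1, a GTPase induced by interferon gamma, and Mpeg1, a macrophage perforin, differ widely between these livers, and each bright gene was set against them. Iigp1 read from 839 in mouse 7 to 15220 in mouse 6 and Mpeg1 from 683 in mouse 7 to 6915 in mouse 6. The pair followed each other closely (r = 0.956, exact permutation p = 0.000248; rho = 0.976, p = 0.000397; r = 0.917 without mice 4 and 7), so their relations to any other gene are not separate results. A slope is the change in log2 intensity of a gene for a doubling of the reference gene, fitted with limma over all tested probe sets.

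With Mpeg1, 3 of the 9 genes had a positive slope at an adjusted p under 0.05, against 4.13% of all probe sets, and 0 a negative one, against 1.55%. Cd52 rose by 0.83 ± 0.11 (SE) per doubling of Mpeg1 (limma, adjusted p = 0.00204), Ltb by 1.0 ± 0.19 (0.0116) and Cd53 by 1.05 ± 0.23 (0.0232). Cd53 was bright enough to test only through mice 6 and 8, the mice highest for Mpeg1, so the filter also favoured a positive slope for it. The other 6 genes did not pass. Igha had a slope of -0.24 ± 0.08 (unadjusted p = 0.0103, adjusted p = 0.101 by limma), with its highest readings in mice 4 and 7, the mice lowest for Mpeg1. Without mouse 4 the slope was -0.15 ± 0.06 (adjusted p = 0.236 by limma) and the SD of Igha 0.26 in place of 0.41. Cd4 (0.25 ± 0.14) and Ighm (0.13 ± 0.07) had positive slopes with adjusted p-values of 0.351 and 0.305 by limma. The Cd4 slope was 0.08 ± 0.10 without mouse 4, its lowest reading, and 0.65 ± 0.21 without mice 6 and 8, with adjusted p-values of 0.73 and 0.698 by limma, and without mouse 4 its SD was 0.34 in place of 0.63. The sign for Ighm depends on the probe set, and its slope was -0.18 without the probe sets whose suffix marks shared or non-standard probes and -0.02 with its tested probe sets averaged. Cd37, Ms4a1 and Cd79a had slopes from -0.08 to 0.04. At an unadjusted p under 0.05 by limma, the same 3 genes had a positive slope, against 10.2% of all probe sets, and Igha a negative one, against 10.7%. Common-median scaling of the arrays gave 212 probe sets with a positive and 150 with a negative slope, in place of 259 and 97. The 3 calls rest on mice 6 and 8. Without mouse 6 or without mouse 8, Cd52 alone passed among the 9 genes, and without both none did, with slopes of 0.54 for Cd52 (limma, adjusted p = 0.684) and 0.81 for Ltb (0.886), while Cd53 was then too dim to test. Without both mice 16 probe sets in all had a positive slope on Mpeg1, against 259 with all 8.

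With Iigp1, 0 of the 9 genes passed in either direction, against 1.18% of all probe sets with a positive and 0.0958% with a negative slope. The slopes of Ltb (0.71 ± 0.16, adjusted p = 0.0635 by limma), Cd52 (0.55 ± 0.12, 0.0577) and Cd53 (0.67 ± 0.21, 0.159) had the same sign as with Mpeg1. Ltb and Cd52 passed without mouse 2, whose Iigp1 of 10908 was among the higher values while its Ltb was 120 (adjusted p = 0.0024 and 0.00294 by limma). At an unadjusted p under 0.05 by limma, Ltb, Cd52, Cd53 and Ighm had positive slopes (4 of 9, against 8.27% of probe sets) and Igha a negative one (1 of 9, against 7.94%).

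Without a filter on brightness, 14 of the dimmer genes could be tested against Mpeg1 as well. None passed at an adjusted p under 0.05 (0 of 14 in either direction), against 2.17% of all probe sets with a positive and 0.523% with a negative slope, and 0 of 14 passed on Iigp1, against 0.271% with a positive slope. At an unadjusted p under 0.05 by limma, 3 of the 14 had a positive slope on Mpeg1, against 8.97% of all probe sets, and 0 a negative one, against 7.4%. On Iigp1 these were 1 of 14 (Klrd1, slope 0.30), against 6.83%, and 0, against 5.82%. The 3 on Mpeg1 were Klrd1 (slope 0.49 ± 0.13, limma adjusted p = 0.0891), Thy1 (0.41 ± 0.12, 0.128) and Gzmb (0.44 ± 0.19, 0.286). All 3 were highest in mouse 6. Some of the 14 genes had many values raised to the floor. These were 7 mice for Cd3g and for Cd5, 5 for Thy1, and 4 for Gzma and for Cd22. Such genes had little room to show a slope, so their failure to pass says little.

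**Figure D3:**
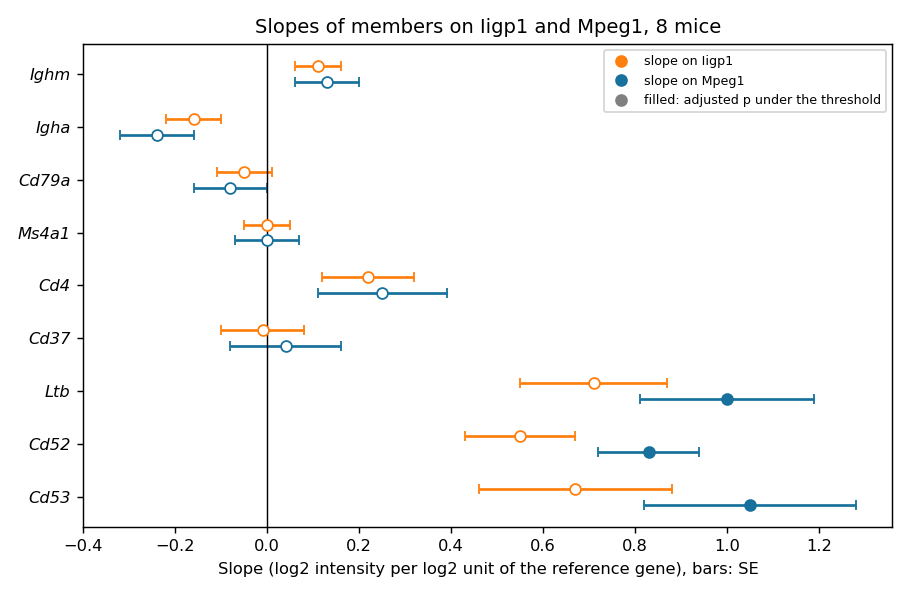
Slope of each of the 9 genes on Iigp1 (orange) and on Mpeg1 (blue) over 8 mice, in log2 units per log2 unit, with bars of 1 SE. Filled points passed at an adjusted p under 0.05, which only Ltb (1.0), Cd52 (0.83) and Cd53 (1.05) on Mpeg1 did, and Igha alone lies below 0 by more than its SE on both.

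Exact permutation tests over all 40320 pairings of the mice were made for the 9 genes against the same references. By Pearson's r, 1 of these 18 relations passed after adjustment, that of Cd52 with Mpeg1, and by Spearman's rho 6 did. Cd52 with Mpeg1 passed by both (r = 0.925, exact p = 0.000521, adjusted p = 0.00937; rho = 0.857, p = 0.0107, adjusted 0.0461). Ltb with Mpeg1 had r = 0.865 (exact p = 0.00945, adjusted 0.0548; rho = 0.833, p = 0.0154, adjusted 0.0461) and Cd53 had r = 0.828 (exact p = 0.0098, adjusted 0.0548; rho = 0.833, p = 0.0154, adjusted 0.0461). Without mice 6 and 8, the 2 farthest from the median of Mpeg1, r was 0.779 for Cd52, 0.652 for Ltb and 0.411 for Cd53. Igha had r = -0.748 with Mpeg1 (exact p = 0.0252, adjusted 0.0757; rho = -0.881, p = 0.00724, adjusted 0.0435), and r = -0.641 without mice 6 and 8. By rank, Igha fell as Mpeg1 rose, but on the log2 scale that relation did not pass. The other relations that passed by rank were those of Ltb (rho = 0.881, exact p = 0.00724, adjusted 0.0435; r = 0.829, p = 0.0217, adjusted 0.0757) and Cd52 (rho = 0.905, exact p = 0.00456, adjusted 0.0435; r = 0.832, p = 0.0122, adjusted 0.0548) with Iigp1. Without mice 4 and 7, the 2 farthest from the median of Iigp1, r was 0.813 for Ltb and 0.796 for Cd52.

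**Figure D4:**
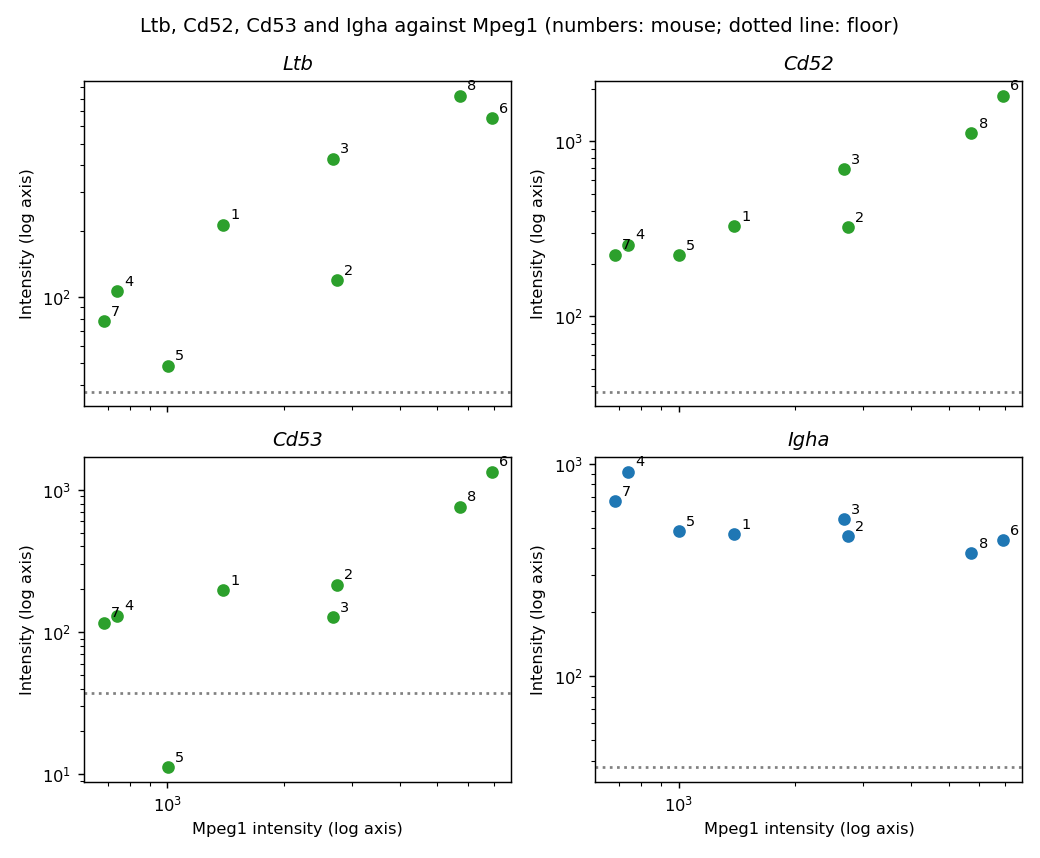
Intensity of Ltb, Cd52, Cd53 and Igha against that of Mpeg1 in the 8 mice (log axes, numbers are mice, dotted line at the floor of 37.2). Mice 6 and 8 lie at the upper right for Ltb, Cd52 and Cd53, and mice 4 and 7 at the upper left for Igha.

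Among the 36 pairs of the 9 genes, 1 passed after adjustment by the exact permutation test, Ltb with Cd52 (r = 0.934, p = 0.000521, adjusted 0.0187; rho = 0.976, p = 0.000397, adjusted 0.0143), and r was 0.927 without mice 6 and 8. Cd52 with Cd53 (r = 0.864, exact p = 0.00481, adjusted 0.0646; rho = 0.833, p = 0.0154, adjusted 0.196) and Ltb with Cd53 (r = 0.845, exact p = 0.00538, adjusted 0.0646; rho = 0.81, p = 0.0218, adjusted 0.196) did not pass, and without mice 6 and 8 their r fell to 0.358 and 0.591. Igha with Cd4 had r = -0.827 (exact p = 0.0221, adjusted 0.199; rho = -0.286, p = 0.501), which turned to 0.732 without mice 4 and 7. Signs were split over the pairs, with 20 positive and 16 negative and a median r of 0.0892. Among the B lineage genes, Cd79a had low correlations with Ms4a1 (r = 0.0712, exact p = 0.863; rho = -0.0238, p = 0.977) and with Ighm (r = 0.172, exact p = 0.684; rho = 0.0952, p = 0.84).

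The genes with the most similar profile were found for the 3 most variable members. Over the 8 mice and 4869 tested genes, Cd52 had its highest r with Cd48, a receptor of most leukocytes (0.993), Tmsb4x, an actin-binding peptide (0.989), and the proteasome subunit Psma5 (0.987). For Cd53 these were the class I gene H2-Q4 (0.98), Cd14, the endotoxin coreceptor of monocytes (0.979), and Cyrib (0.978). For Ltb they were Icam1, an adhesion molecule (0.983), Ccr2, the chemokine receptor of recruited monocytes (0.982), and Ubd (0.981). Each is the highest of many values, so no p-value applies to them, and the 8 values behind each share the same arrays.

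Other lists of genes were read in the same livers, and their counts stand against 4.13% of all probe sets with a positive slope on Mpeg1 and 1.55% with a negative one. Of 12 further B and plasma cell genes bright enough to test (of 48), 2 rose with Mpeg1, Irf8 (0.45 ± 0.10 per doubling, limma adjusted p = 0.0275) and Btk (0.35 ± 0.08, 0.0237), and 0 fell. Monocytes and macrophages make both of these as well. Fcgr2b and Syk, which followed Irf8 by F ratio, did not pass, and Fcgr2b went the other way. Their slopes were -0.27 ± 0.12 (limma adjusted p = 0.243) and 0.24 ± 0.10 (0.216). Of 7 further T and NK cell genes tested (of 66), 1 rose with Mpeg1, the chemokine gene Ccl5 (1.66 ± 0.36, limma adjusted p = 0.022), and Zap70, a kinase of the T cell receptor, had a slope of 0.09 ± 0.11 (0.746). Of 15 pan-leukocyte genes, 9 rose and 0 fell. Laptm5, a lysosomal protein of blood cells, had a slope of 0.48 ± 0.09 (limma adjusted p = 0.0141), while Coro1a (0.62 ± 0.23, 0.16) and Hcls1 (0.71 ± 0.19, 0.0635) did not pass.

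Markers of other cell types were set against Mpeg1 in the same way, and not against Ltb, Cd52 or Cd53 themselves. The shares over all probe sets were again 4.13% with a positive and 1.55% with a negative slope. Of 13 macrophage genes besides Mpeg1, 11 rose with Mpeg1, among them Lyz2 (1.07 ± 0.20, limma adjusted p = 0.00987) and Ctss (0.96 ± 0.09, 0.000201), and the mean log2 deviation of the 13 ran from -0.83 in mouse 7 to 1.74 in mouse 6. All 7 tested class II genes, which B cells, macrophages and dendritic cells share, rose (H2-Aa by 1.33 ± 0.14, limma adjusted p = 0.000469), with a mean deviation from -1.46 in mouse 5 to 2.19 in mouse 6. All 12 interferon response genes, the reference gene Iigp1 among them, rose as well. Of the lymphocyte chemokine genes tested, 2 of 3 rose (Cxcl9 by 1.49 ± 0.19, limma adjusted p = 0.00128), and of 4 dendritic cell genes 1 rose, Itgax (0.36 ± 0.08, 0.036). None of 10 hepatocyte genes did (0 of 10), nor any of the 2 endothelial genes, the 2 erythroid genes or the neutrophil gene S100a8, and 0 of the 4 cholangiocyte genes on the array were bright enough to test, Cftr averaging 107 ± 17.5. Of the 3 genes tested among those kept to check sex and growth hormone action, 0 rose or fell, and Xist was far lower in mouse 5 (95.8) than in the others (442 to 1572). With shares of 4.13% and 1.55% over all probe sets, counts of 0 in such short lists show no contrast between cell types. The part of macrophage RNA in the readings of Ltb, Cd52 and Cd53 was not tested.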

How the data were processed

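Total liver RNA from 8 mice was hybridised to Affymetrix U74Av2 arrays and read with a Hewlett-Packard GeneArray scanner, per the labels. The authors deposited 1 linear intensity for each of 12488 probe sets and 8 arrays. Which software made it is not stated in the labels. Mean intensities trimmed by 2% at both ends differed by 0.014% between arrays, so the deposited values count as scaled. The number of arrays limits the precision. Nothing in the labels names a batch, and no column lacked a sample.

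Intensities under a floor of 37.2 were raised to it and converted to log2. Control probe sets (66) were left out, and a probe set was tested where its mean reached 165.2. The annotation gives several symbols to 396 probe sets, which were not named. Spread was tested with limma 3.58.1 (squeezeVar with a robust trend, 3.8 prior and 7 residual degrees of freedom, one-sided F test), and slopes with lmFit and eBayes, two-sided. Both used Benjamini-Hochberg adjustment over all tested probe sets, and correlations a two-sided exact permutation test (Python 3.11.15). The tests were tried on simulated data. All 9 bright genes are given for each mouse, and the dimmer ones by range. Of each of the 14 other lists, the text takes up to 3 genes with the highest F ratio, and Btk, named after its values were seen. The 3 most variable genes have their 3 closest genes named. The 34 genes, the lists and both reference genes were chosen with earlier results of these data known. Alternatives were other floors, filters, scalings and probe set rules, and each mouse left out.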

Additional observations from a re-analysis of the deposited data

Results flagged for a closer look

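Thy1 and Gzma had a mouse apart from the others, in that the distance from it to the closest of the other mice, as a share of the range of log2 values, passed Dixon's critical value for 8. Thy1 read 141 in mouse 6 against at most 69.8 in the others, and Gzma read 142 in mouse 6 against at most 65.5. Chance exceeds the critical value in about 1 of 20 cases where no value is raised to a floor. Of the 6265 tested probe sets, all brighter than these genes, 9% exceeded it. That chance rate does not apply to Thy1 and Gzma, where 5 and 4 mice lay under the floor and were raised to it. The floor set the low end of their range, so the shares of 0.527 for Thy1 and 0.578 for Gzma are descriptions and no test. Cd3g read 58.3 in mouse 2 and Cd5 80.5 in mouse 3, each with the other 7 mice under the floor. For these genes the 7 mice share the floor value, so any reading above it meets the criterion and the criterion is no test. The value of Cd3g lies below the highest Y-linked reading of 70.0.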

How the results depend on the processing

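No called slope changed sign under any alternative run; uncalled slopes of Ighm, Cd37 and Ms4a1 did, on Mpeg1 from -0.18 to 0.20 for Ighm, from -0.22 to 0.13 for Cd37 and from -0.05 to 0.07 for Ms4a1. The count of genes past the F test stayed at 0 and that with an unadjusted p under 0.05 at 3. No probe set of any gene passed the adjusted F test in any run, so its count of 0 could hardly change. The number of genes with a mean above the floor was 21, and 16 with the highest Y-linked reading as the level. Bright enough to test were 23 genes without a filter and 5 with a filter at the 60th percentile.

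Calls on Mpeg1 depended most on the mice. Leaving out 1 mouse gave 1 to 3 genes with a positive slope, and 79 to 322 probe sets with a positive and 5 to 135 with a negative one. Without mice 6 and 8 together these were 0, 16 and 0. Negative slopes on Mpeg1 numbered 56 without a filter and 150 with arrays scaled to a common median. Cd53 lost its call with the floor at the 10th percentile (limma, adjusted p = 0.0725) and without a filter (0.0653). Its adjusted p ran from 0.0184 to 0.215 over the alternatives, and that of Ltb from 0.00289 to 0.886.

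On Iigp1, leaving out 1 mouse gave 0 to 2 genes with a positive slope, and 24 to 214 probe sets with a positive and 0 to 60 with a negative one, the highest counts being without mouse 2. Without mice 6 and 8 the probe sets were 14 and 0, without a filter 29 and 1, and with the common median 49 and 3. Quantile normalization and averaging a gene over its probe sets each gave 2 genes, Ltb and Cd52, with 19 and 14 probe sets of negative slope. The cause of these differences was not tested. No paired analysis was possible because the 8 mice form 1 group.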

Other observations

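The kappa light chain constant gene Igkc has no probe set of its own in the annotation, but 5 probe sets list it with variable or joining segments of the same locus, so they carry no single name. The brightest, 93086_at, lists 5 symbols of the kappa locus and read 1786, 703, 3508, 2534, 1467, 3100, 773 and 2600 in mice 1 to 8, a range of 4.99-fold (limma F test, unadjusted p = 0.00736). Mice 3, 6, 8 and 4 were high and mice 2 and 7 low. The brightest probe sets of Ighm and Igha, highest in mice 1 and 4, did not show that order, though that of Ighm was also low in mouse 7. The dimmer Ighm probe set with a mean of 132 came closer to it. That probe set was highest in mice 6, 3 and 8 (165, 161 and 157) and lowest in mouse 7 (85.9). The slope of 93086_at on Mpeg1 was 0.30 and did not pass (limma, adjusted p = 0.437). The next brightest of the 5, 97567_f_at and 102585_f_at, ranged 1.67-fold and 1.45-fold. A probe set that lists Igha and Ighm among 4 symbols, 99421_at, ranged 1.48-fold around a mean of 1006.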
